A study of Arabidopsis thaliana with 8 samples.

Results

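The plastid-encoded loci of Arabidopsis thaliana were described in shoots and roots of the rml1 (root meristemless 1) mutant and of Columbia-0 wild type seedlings. They were all entries of the expression table whose locus code starts with ATCG, the prefix of the plastid genome, and there were 67 such loci among 29920 in all, each with 1 entry. The rml1 mutant is deficient in glutathione through a lesion in the gene of its first synthesis enzyme, and the series title places the work in the redox control of auxin and strigolactone signalling during root growth. All seedlings were 7 days old and had grown on vertical plates with the same medium, with no other treatment. The 8 arrays, with 1 pooled RNA sample each, were 3 of rml1 shoots (pools of 61, 65 and 108 shoots), 3 of wild type shoots (pools of 30 shoots each), 1 of rml1 roots (234 roots) and 1 of wild type roots (90 roots). The shoot replicates are called biological in the labels, which do not say whether the root pools came from the same seedlings. The shoot pools of each genotype add up to its root pool, so they may have. The shoot arrays are called rml1-1 to rml1-3 and WT-1 to WT-3 below, after their replicate numbers. Shoots could be tested over 3 arrays a genotype, whereas roots had 1 array each, no replicate error and no test.

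The plastid genome is what remains of the genome of a bacterial ancestor of chloroplasts. It carries genes for core subunits of both photosystems, the cytochrome b6f complex, the ATP synthase, an NADH dehydrogenase-like complex and the large subunit of Rubisco, and genes for part of the plastid ribosome and of a bacterial-type RNA polymerase. Nuclear genes supply the sigma factors that direct this polymerase to its promoters, the proteins bound to it, a phage-type polymerase that transcribes plastid genes as well, most ribosomal proteins and the factors that cut, edit and protect plastid RNA. Plastid genes are often read as long joint transcripts, and their RNA is far more abundant in chloroplasts than in the plastids of roots. The gene table used here lists 129 plastid genes, 85 of them protein-coding, 37 for tRNA and 7 for rRNA, but under other tags, and 0 of the 67 codes matched it. The loci are therefore given by code alone, with no gene name, role or position, and no sequence is shown.

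The deposited values are on a log2 scale, so that 1 unit is a 2-fold difference. Levels of different loci also depend on their probes. Single plastid-encoded loci are therefore not ranked by level here, and the comparisons of their levels with those of all loci below are rough. The organ labels matched the medians of the marker lists. The median of 16 measured nuclear photosynthesis genes was 12.37 to 12.38 in rml1 shoots, 12.46 to 12.50 in wild type shoots, 8.03 in the rml1 root and 7.72 in the wild type root. That of 12 root genes, among them the CASP genes of the Casparian strip, the barrier of the root endodermis, was 4.60 to 4.72, 4.45 to 4.64, 5.92 and 7.92 in the same order. Not every root gene followed the median. SCR was lower in the root than in the shoot mean in both genotypes (log2 -0.36 in the wild type and -0.47 in rml1). SHR was lower in the rml1 root only (-0.18, against 0.69 in the wild type). Over all loci the array medians lay between 3.84 and 3.98.

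In shoots the plastid-encoded loci were among the entries with high values, and in roots they were lower. Their median was 9.05, 9.05 and 9.16 in the rml1 shoot arrays and 8.92, 9.0 and 8.99 in the wild type shoot arrays, which 95.7 to 96.3% of all loci did not reach. In the rml1 root their median was 5.27 and in the wild type root 5.07. The values of single loci ran from 2.66 to 12.22 over the shoot arrays, where all loci had maxima of 13.29 to 13.35. Of the 67 loci, 63 or 64 lay above the array median in each shoot array, 50 in the rml1 root and 43 in the wild type root.

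**Figure D1:**
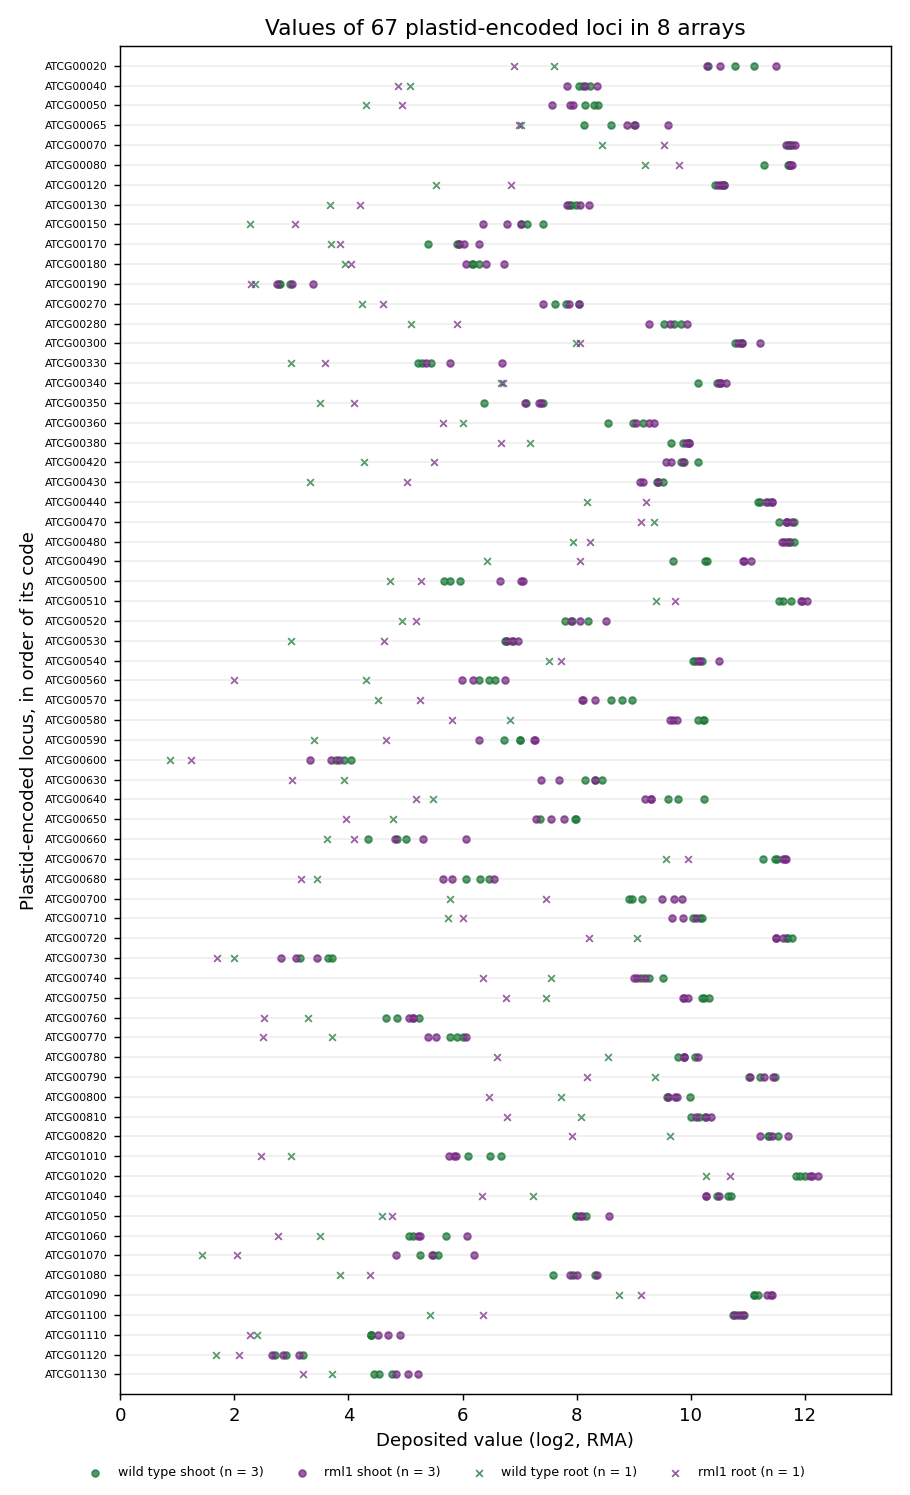
Deposited values (x axis, log2) of the 67 plastid-encoded loci (y axis, in the order of their codes) in each array: filled points are the 3 rml1 and 3 wild type shoot arrays, crosses the single root arrays. At each locus both crosses lie to the left of the shoot points of their own genotype, and the shoot points of the genotypes overlap at 50 loci.

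The rml1 shoot arrays stood apart from each other at the plastid-encoded loci. Array rml1-2 was the highest of the 3 rml1 arrays at 48 of 67 loci (71.6%), against 37.3% of all loci. Its median distance from the mean of the other rml1 arrays was 0.23 at these loci and 0.01 over all loci, and that of rml1-1 was -0.20 and -0.01. ATCG00020 is an example, with 10.28, 11.49 and 10.50 in rml1 shoots and 11.10, 10.30 and 10.78 in wild type shoots. Without rml1-2, 3 loci rose and 6 fell in the shoot comparison described next, against 4 and 6 with it, but ATCG00510, ATCG00640 and ATCG01010 were lost and ATCG00630 and ATCG00770 gained. Without rml1-1 the falls went from 6 to 2. Of all loci, 23.9% passed with all shoot arrays, 19.9% without rml1-2 and 16.3% without rml1-1. WT-2 was higher than the other wild type shoot arrays by a median of 0.15.

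The first comparison asked which plastid-encoded loci differ between rml1 and wild type shoots. Of 67 loci, 4 rose and 6 fell in rml1, and 57 did not pass an adjusted p under 0.05. That is 14.9% called, where 23.9% of all loci were called (13.3% up and 10.6% down). The median difference of the plastid-encoded loci was 0.04, with quartiles of -0.22 and 0.19. That of all loci was -0.03, with similar quartiles of -0.22 and 0.20. The median SE was 0.14 for the plastid-encoded loci and 0.12 for all loci. Only 1 plastid-encoded locus reached 1 log2 unit, and the share of all loci that did so is not given here. At an unadjusted p under 0.05 there were 17 loci (25.4%), against 36.1% of all loci. The 3 rml1 arrays lay all above the 3 wild type arrays at 10 loci (14.9%, against 21.9% of all loci) and all below them at 7 (10.4%, against 20.2%), which makes 17 loci without overlap (25.4%, against 42.1%). Each of these shares was below that over all loci.

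The largest rise was that of ATCG00500, whose values were 6.65, 7.07 and 7.03 in rml1 shoots and 5.67, 5.96 and 5.78 in wild type shoots. All rml1 values lay above all wild type values, and the locus rose by 1.11 log2 units, or 2.16-fold (SE 0.14, limma adjusted p = 0.00184). The code next to it among the measured loci, ATCG00490, had 10.91, 10.93 and 11.06 in rml1 shoots and 9.69, 10.25 and 10.29 in wild type shoots, and it rose by 0.89 log2 units, or 1.85-fold (SE 0.17, limma adjusted p = 0.00912). Both loci kept apart in every array, and the adjusted p with 1 array left out was 0.00328 to 0.0108 for ATCG00500 and 0.00638 to 0.0397 for ATCG00490. ATCG00510, the next measured code, had 11.94, 12.04 and 11.96 in rml1 shoots and 11.54, 11.76 and 11.62 in wild type shoots, and it rose by 0.34 log2 units, or 1.26-fold (SE 0.09, limma adjusted p = 0.0395). Its groups did not overlap either, but leaving out any array except WT-2 took it above the threshold (adjusted p 0.0913 to 0.103). ATCG00700 had 9.71, 9.49 and 9.84 in rml1 shoots and 8.92, 8.96 and 9.14 in wild type shoots, and it rose by 0.67 log2 units, or 1.59-fold (SE 0.12, limma adjusted p = 0.00722), with an adjusted p of 0.00792 to 0.0304 when 1 array was left out.

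Among the falls, ATCG00580 had the lowest adjusted p. Its values were 9.77, 9.69 and 9.63 in rml1 shoots and 10.23, 10.22 and 10.13 in wild type shoots, and it fell by 0.50 log2 units (SE 0.09, limma adjusted p = 0.00643). The neighbouring code ATCG00570 had 8.12, 8.31 and 8.10 in rml1 shoots and 8.97, 8.79 and 8.60 in wild type shoots, and it fell by 0.61 log2 units (SE 0.12, limma adjusted p = 0.0119). At both loci every rml1 array was below every wild type array, and the calls held with each array left out (adjusted p up to 0.0302 and 0.0488). ATCG00640 had a fall of the same size as ATCG00570 to 2 decimals, with 9.19, 9.30 and 9.29 in rml1 shoots and 9.78, 10.24 and 9.60 in wild type shoots, and it fell by 0.61 log2 units (SE 0.16, limma adjusted p = 0.0355). The spread of its wild type values was wide, and its adjusted p missed the threshold when any rml1 array or WT-1 was left out (adjusted p 0.0596 to 0.104).

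The other loci that fell were ATCG01010, ATCG00050 and ATCG00750. ATCG01010 had 5.85, 5.77 and 5.88 in rml1 shoots and 6.09, 6.68 and 6.48 in wild type shoots (log2 difference -0.58, SE 0.15, adjusted p = 0.0321). ATCG00050 had 7.57, 7.93 and 7.88 in rml1 shoots and 8.15, 8.30 and 8.37 in wild type shoots (log2 difference -0.48, SE 0.12, adjusted p = 0.0297). ATCG00750 had 9.88, 9.95 and 9.86 in rml1 shoots and 10.19, 10.32 and 10.23 in wild type shoots (log2 difference -0.35, SE 0.08, adjusted p = 0.0234). Each kept its groups apart. Leaving out rml1-1, rml1-3, WT-2 or WT-3 took each of them above the threshold (adjusted p 0.0578 to 0.0928), and for ATCG01010 leaving out rml1-2 did so too (0.0872). The count of falls was accordingly 2 when rml1-1 or rml1-3 was left out and 3 when WT-2 or WT-3 was, while the count of rises was 3 to 5. In these 4 fits 15.1 to 18.4% of all loci were called, against 23.9% with all shoot arrays.

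**Figure D2:**
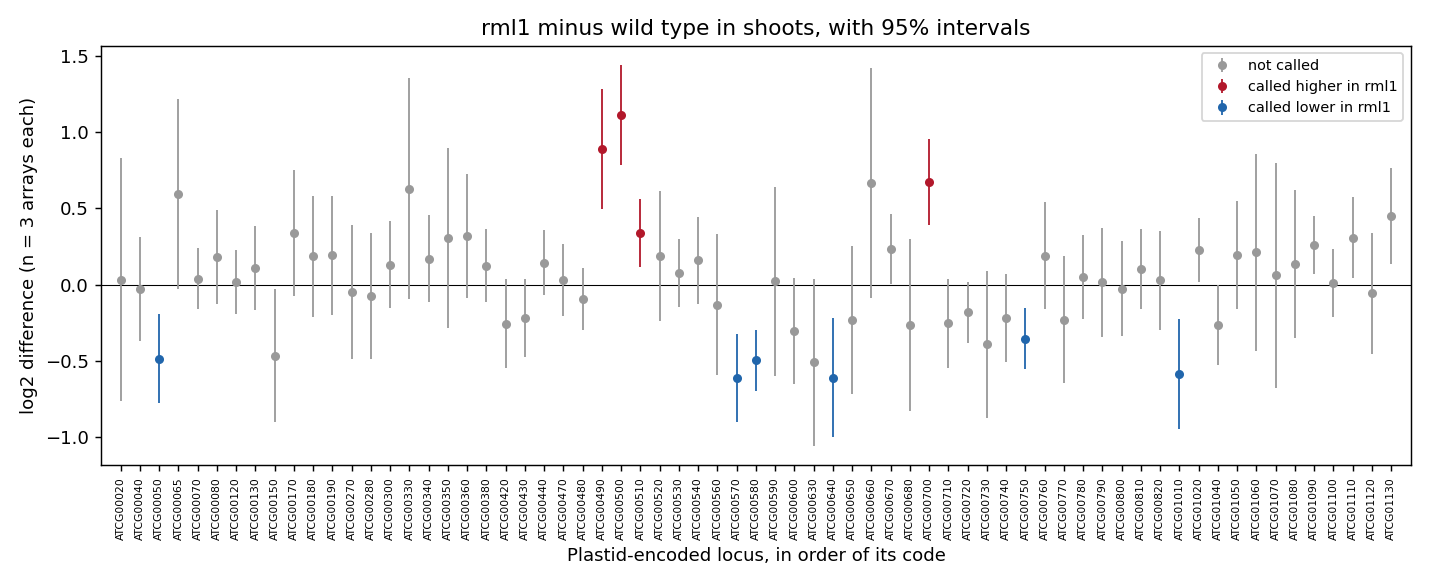
Difference between rml1 and wild type shoots (y axis, log2, n = 3 arrays each) for each of the 67 plastid-encoded loci in code order, with 95% intervals from limma as bars. The 4 called rises are in red, with ATCG00490, ATCG00500 and ATCG00510 side by side, and the 6 called falls are in blue.

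Of the 57 loci that did not pass, 53 had a 95% interval of the difference within 1 log2 unit on either side of 0, so a 2-fold change of these was outside the interval. The exceptions had wide intervals, such as ATCG00660 (log2 0.67, interval -0.09 to 1.42) and ATCG00330 (log2 0.63, interval -0.09 to 1.35). At ATCG00330 the rml1 values were 5.36, 6.69 and 5.78, so that rml1-2 stood well above the others, and the wild type values were 5.22, 5.44 and 5.28. For 27 of the 67 loci the interval lay within 0.5 log2 units of 0. The locus closest to the threshold without passing it was ATCG01130, with 4.83, 5.22 and 5.04 in rml1 shoots and 4.44, 4.76 and 4.54 in wild type shoots (log2 0.45, adjusted p = 0.0502).

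Nuclear genes that act on plastid gene expression were looked at in the same shoot fit. Over 6 lists of such genes 50 of 85 fell and 1, a mitochondrial enzyme, rose, with a median of -0.34, where 6 of 67 plastid-encoded loci fell. Whether the lists differ from the plastid-encoded loci was not tested. Of 33 nuclear genes for proteins of the plastid ribosome, 30 fell and 3 did not pass, with a median of -0.43, against 10.6% of all loci down. RPL4, a protein of the large subunit, fell by 0.85 (SE 0.11, adjusted p = 0.00193). The number falling was 17 with rml1-1 left out, 15 with rml1-3, 16 with WT-2 and 18 with WT-3, and it was 22 and 27 with rml1-2 and WT-1 left out. With 1 array left out, the 6 lists held 28 falls (rml1-3) to 42 (WT-1), among them 31 for rml1-1 and for WT-2. Over all loci, 15.1% (rml1-3) to 21.7% (WT-1) were then called. Of 6 sigma factors, 5 fell. SIGE, which is induced by blue light and stress, fell by 0.85 (SE 0.14, adjusted p = 0.00571), SIG2 fell by 0.61 (SE 0.09, adjusted p = 0.00305), SIGA fell by 0.57 (SE 0.11, adjusted p = 0.0108), SIGF fell by 0.47 (SE 0.08, adjusted p = 0.00763) and SIG4 fell by 0.42 (SE 0.09, adjusted p = 0.0164), while SIGC had a log2 difference of -0.28 (adjusted p = 0.106). SIG4 missed the threshold when rml1-1, rml1-3 or WT-3 was left out (adjusted p up to 0.0605).

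Of 13 proteins bound to the bacterial-type polymerase, 4 fell and 9 did not pass, with a median of -0.11, where 10.6% of all loci were called down. PTAC6 fell by 0.62 (SE 0.08, adjusted p = 0.00232), while the number of members that fell was 2 with rml1-1, rml1-3, WT-1 or WT-2 left out. Of 14 genes of plastid RNA processing and stability, 7 fell, and 7 fell with each array left out. CP29, an RNA-binding protein of chloroplasts, fell by 0.92 (SE 0.12, adjusted p = 0.00184). Of 16 genes of plastid RNA editing, 4 fell, but with 1 array left out the number was 0 to 2, of all 16, so this count is not stable. CRR28 fell by 0.50 (SE 0.12, adjusted p = 0.0204), and it missed the threshold when any rml1 array was left out (adjusted p up to 0.0646). Of 3 phage-type polymerases, SCA3 of plastids had a log2 difference of -0.12 (adjusted p = 0.319). MGP3, the mitochondrial enzyme of this kind, passed with a rise of 0.36 (SE 0.09, adjusted p = 0.0334), but not once any of the 6 arrays was left out (adjusted p 0.0555 to 0.112). The nuclear photosynthesis markers had a median of -0.09.

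The second comparison asked how the roots of the genotypes differ at the plastid-encoded loci, with 1 array each. The rml1 root was higher at 38 loci and lower at 29, while 48.5% of all loci were higher. When arrays were centred on the plastid-encoded loci, the split was 33 higher and 34 lower, so the majority direction turned. It was at least 1 log2 unit higher at 9 loci and at least 1 unit lower at 9. Such differences were found at 5.25% of all loci in the higher direction and at 7.34% in the lower, and either way at 26.9% of the plastid-encoded loci against 12.6% of all. The median difference was 0.17 for the plastid-encoded loci, with quartiles of -0.61 and 0.59. With that centring 7 loci were at least 1 unit higher and 13 at least 1 unit lower. Root values of 24 loci in the wild type and 17 in rml1 lay below the array median, and no detection calls were used. The median of the root markers was 5.92 in the rml1 root and 7.92 in the wild type root, and that of the nuclear photosynthesis genes 8.03 and 7.72. The roots thus differed in the medians of both marker lists. Against these medians, the root marker MYB36 was higher in the rml1 root (log2 0.87). The photosynthesis genes LHCA4 (-0.31) and PSBO1 (-0.10) were lower there, and the other markers went with the medians. The part of the marker differences in those of the plastid-encoded loci was not tested.

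The largest differences towards rml1 were at ATCG00430 (5.02 in the rml1 root and 3.32 in the wild type root, a difference of 1.70) and at ATCG00700 (7.46 in the rml1 root and 5.77 in the wild type root, a difference of 1.68). ATCG00700 was also called higher in rml1 shoots. ATCG00530 differed by 1.64, with 4.63 in the rml1 root and 2.99 in the wild type root. The wild type root values of ATCG00430 and ATCG00530 lay below that array's median of 3.98, so the exact size of these differences is uncertain. ATCG00490, which was called higher in rml1 shoots too, had 8.06 in the rml1 root and 6.43 in the wild type root (a difference of 1.63), and ATCG00120 differed by 1.31. The codes ATCG00420, ATCG00430 and ATCG00440, which follow each other, all differed by more than 1 unit (1.24, 1.70 and 1.03). In shoots those 3 loci had log2 differences of -0.26, -0.22 and 0.14, and none of them passed.

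The largest difference towards the wild type was at ATCG00560, with 1.99 in the rml1 root and 4.30 in the wild type root (a difference of -2.31), where the rml1 value lies below the array median. ATCG00780 had 6.61 in the rml1 root and 8.55 in the wild type root (a difference of -1.94), and ATCG00820 had 7.92 in the rml1 root and 9.64 in the wild type root (a difference of -1.72). The values of ATCG00780 and ATCG00820 are above the array medians in both roots. ATCG00810 and ATCG00800 differed by -1.30 and -1.25.

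A run of neighbouring codes had 1 direction in roots. The 12 measured codes from ATCG00720 to ATCG01010 were all lower in the rml1 root, by 0.30 to 1.94 log2 units with a median of -1.19, and this was the longest run of 1 sign. It held 7 of the 9 loci that were at least 1 unit lower. The other 55 loci had a median of 0.36, and 17 of them were lower in the rml1 root. In shoots the same 12 loci had a median of -0.10, 2 of them were called down (ATCG00750 and ATCG01010), and the groups overlapped at 9, as they did at 50 of all 67 loci. Of all loci, 10.6% were called down. Over all 67 loci, next neighbours in code order had the same sign of difference in 40 of 66 pairs in roots and in 38 of 66 in shoots. The median absolute difference between neighbours was 0.69 in roots and 0.23 in shoots, against 0.88 and 0.31 over all 2211 pairs of these loci. In roots these figures include the pairs within the run, so they are not separate from it. The run was found after the values were seen, and a single array a genotype gives no error for it.

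**Figure D3:**
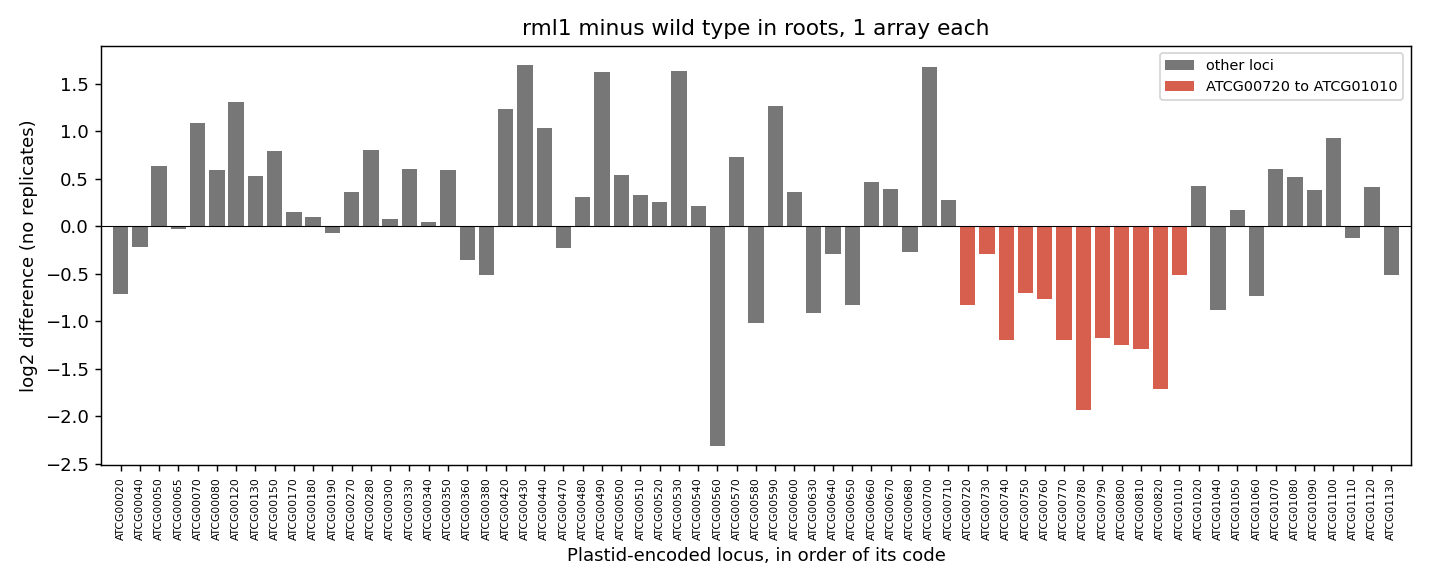
Difference between the rml1 and the wild type root array (y axis, log2, 1 array each, no error) for each of the 67 plastid-encoded loci in code order. The red bars, from ATCG00720 to ATCG01010, are 12 successive measured codes that are all below 0, from -0.30 to -1.94.

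The root differences were set beside the shoot differences, which come from other arrays but possibly from the same seedlings. All 4 loci called up in shoots were higher in the rml1 root (ATCG00490 by 1.63, ATCG00500 by 0.54, ATCG00510 by 0.33 and ATCG00700 by 1.68), where 73.8% of all loci called up in shoots were higher in the rml1 root. They make up 5.97% of the plastid-encoded loci, and 9.8% of all loci were called up and higher in the root. Of the 6 called down, 4 were lower in the rml1 root (ATCG00580 by 1.02, ATCG00750 by 0.70, ATCG01010 by 0.52 and ATCG00640 by 0.29 log2 units), where the share over all loci called down was 66.3%. These 4 are again 5.97% of the plastid-encoded loci, against 7.02% of all loci. ATCG00050 and ATCG00570 were higher in the rml1 root, by 0.64 and 0.73. Across the 67 loci, which share arrays and are not independent, Pearson's r between the shoot and the root difference was 0.26 and Spearman's rho 0.22, and over all 29920 loci they were 0.36 and 0.32.

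Organs were compared within each genotype as the root array minus the mean of the 3 shoot arrays, with no test. The root value lay below all 3 shoot values at 67 of 67 loci in the wild type and at 67 of 67 in rml1, where this was so at 35.4% and 34.8% of all loci. The root was at least 1 log2 unit lower at 65 loci in each genotype, against 9.98% of all loci in the wild type and 9.5% in rml1. The median difference was -2.89 in the wild type and -3.07 in rml1, that is 7.40-fold and 8.38-fold higher levels in shoots. In such bulk samples fewer plastids or green cells and less plastid RNA in each cannot be told apart. Whether the labelling used oligo-dT or random primers is not given in the sources used here, and it bears on how much plastid RNA, little of which is polyadenylated, the arrays measured.

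The size of the organ difference varied widely among the loci. In the wild type it was largest at ATCG00430 (-6.12), where the shoot values were 9.40, 9.50 and 9.43 and the root value 3.32, below the array median. It was smallest at ATCG00190 (-0.50), where the shoot values were 2.81, 2.97 and 2.79 and the root value 2.36, all below the array medians. In rml1 the largest difference was at ATCG00630 (-4.79), with a root value of 3.01 that is also below the array median, and the smallest again at ATCG00190 (-0.76). The exact size and order of differences that rest on such low values are uncertain. ATCG00500, the locus with the largest rise in rml1 shoots, had an organ difference smaller than the median in both genotypes (-1.08 in the wild type and -1.65 in rml1).

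The spread of the organ difference over the loci was 1.21 (SD over 67 loci) in the wild type and 0.88 in rml1. The difference was larger in rml1 at 35 loci and smaller at 32. ATCG00780, chosen for its root difference, shows both organs: its wild type shoot values were 9.78, 10.07 and 9.88 and its rml1 shoot values 9.87, 10.12 and 9.88, whereas the root values were 8.55 in the wild type and 6.61 in rml1. Across loci the plastid profile of the rml1 root had a Pearson's r of 0.93 to 0.94 with those of the rml1 shoots and of 0.93 with that of the wild type root (over 67 loci). The wild type root had r of 0.88 with the wild type shoots and of 0.90 with the rml1 shoots. With the wild type shoots the rml1 root had r of 0.90. These correlations are descriptions over loci whose probes are shared by all arrays.

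**Figure D4:**
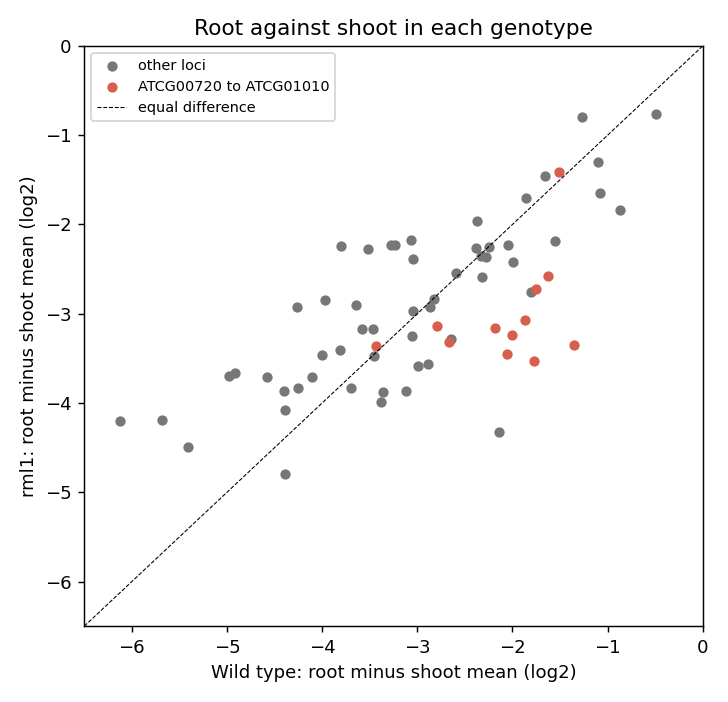
Root value minus the mean of the shoot arrays for each of the 67 plastid-encoded loci in the wild type (x axis, log2) and in rml1 (y axis, log2), with 1 root and 3 shoot arrays a genotype; the dashed line marks equal differences. The difference is larger in rml1 at 35 loci, below the line, and smaller at 32. The 12 loci in red were picked for a lower value in the rml1 root, so their place towards the lower right follows from that choice.

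The other organelle genome was used for comparison. The 33 measured mitochondrial loci (codes starting with ATMG) had a median shoot difference of 0.03, close to that of the plastid-encoded loci. By limma 6 of them were called up, where 13.3% of all loci were. In roots, however, with 1 array a genotype, their median was 0.98. There 16 of 33 were at least 1 log2 unit higher in rml1 and 0 at least 1 unit lower, while the plastid-encoded loci split 9 and 9. Of all loci, 5.25% were at least 1 unit higher and 7.34% at least 1 unit lower. Whether the organelles differ was not tested. The nuclear genes of the plastid ribosome, of which 30 of 33 fell in shoots, had a median root difference of -0.05, with 0 at least 1 unit away in either direction.

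**Figure D5:**
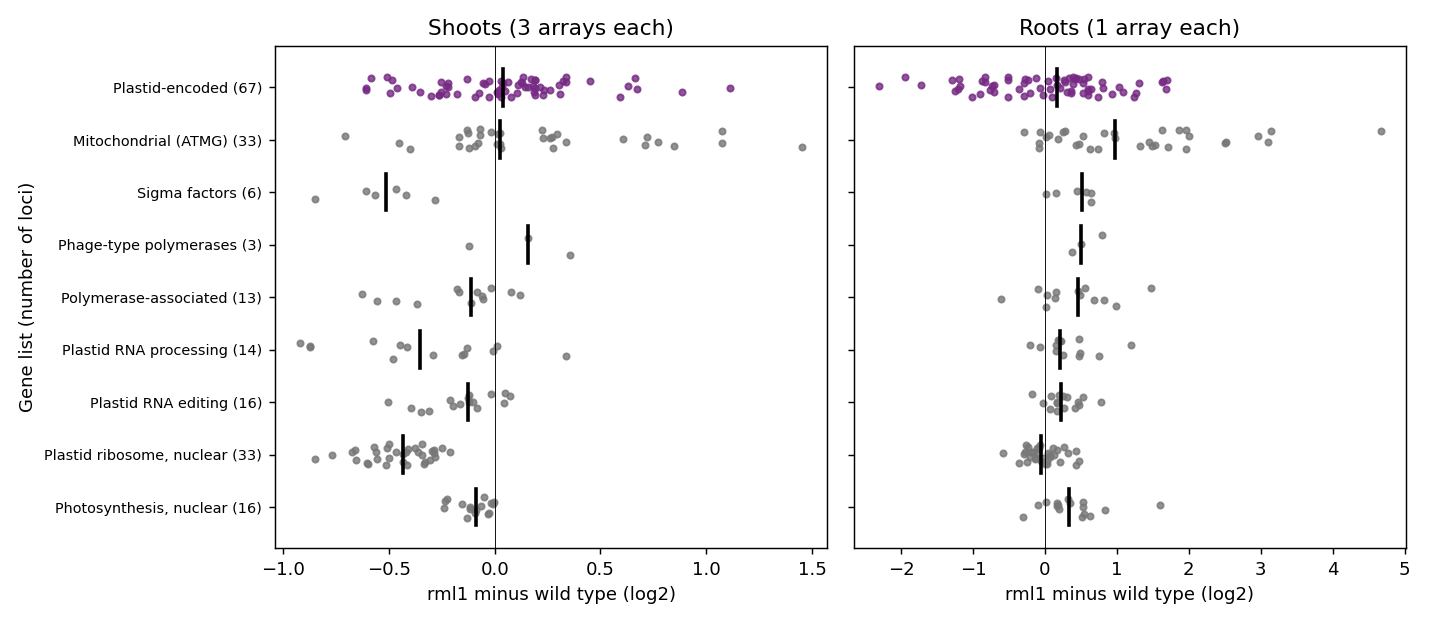
Difference between rml1 and wild type (x axes, log2) in shoots (left, 3 arrays each) and roots (right, 1 array each) for the plastid-encoded loci, the mitochondrial loci and the nuclear lists (y axis, number of loci in parentheses); points are loci and black bars medians. In shoots the plastid-encoded median is 0.04 and that of the nuclear genes of the plastid ribosome -0.43, and in roots the mitochondrial median is 0.98.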

How the data were processed

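Total RNA labelled with biotin was hybridised to Affymetrix Agronomics tiling arrays, 1 sample an array. What the authors deposited are log2 values made by RMA, per the submitters' processing notes. Its settings, the genome build and which probes make up a locus were not given in the sources used here. RMA usually equalises the distributions of all arrays, so levels are relative to other RNA. The number of arrays limits the precision.

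Entries were averaged per locus by the first 9 characters (30237 entries, 29920 loci). The 6 shoot arrays were fitted in limma 3.58.1 (R 4.3.3) on genotype alone, with lmFit and eBayes, and two-sided p-values were adjusted by Benjamini-Hochberg over all loci (threshold 0.05). The fit was tested on simulated data. Root and organ differences had no test.

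Members and lists were chosen with earlier results of these data known. The naming rule took the most changed loci of each functional group and could not be applied in full to codes without names. The loci given are those called in shoots, the 5 largest root differences in each direction, the extremes of the organ difference, and others chosen after their values were seen. Symbols of 84 of 85 nuclear list loci came from a gene table of RefSeq for TAIR10.1. Alternatives were other scalings, filters, variance models and thresholds, a replicate block, and arrays left out. Plots were made in Python 3.11.15 (matplotlib 3.10.9).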

Additional observations from a re-analysis of the deposited data

Results flagged for a closer look

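At 4 plastid-encoded loci the rml1 shoot arrays lay all on one side of the wild type shoot arrays while the rml1 root lay on the other side of the wild type root. ATCG00050 had a log2 difference of -0.48 in shoots and 0.64 in roots, and ATCG00570 had -0.61 and 0.73. Both were called in shoots (limma adjusted p = 0.0297 and 0.0119). ATCG01110 had 0.31 in shoots and -0.13 in roots, and ATCG01130 had 0.45 and -0.51, and neither passed in shoots (adjusted p = 0.0934 and 0.0502). The root values of ATCG01110 (2.28 in rml1 and 2.40 in the wild type) and of ATCG01130 (3.19 and 3.71) lay below the array medians. The sign of these root differences is therefore uncertain. The difference between organs was not tested, since each root value is a single array. The 4 loci are among 17 plastid-encoded loci whose shoot groups did not overlap. Over all loci such opposite signs were found at 4055 of the 12595 loci whose shoot groups did not overlap, so they are not particular to the plastid-encoded loci.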

How the results depend on the processing

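No difference of the 10 called loci reversed under any alternative, but most alternatives could not have reversed one. Their shoot groups did not overlap, so leaving out 1 array keeps the sign. Thresholds, variance models and the replicate block leave the difference itself unchanged. The count of rises (4) was 8 with a trended and robust eBayes and 7 at an adjusted p under 0.1. It was 3 to 5 with 1 array left out. It was 7 with a filter on the mean value of a locus in each genotype. At least 1 of these means had to exceed the median, over all loci, of the mean of the shoot arrays. The count of falls (6) was 1 at an adjusted p under 0.01 and 2 to 6 with 1 array left out. The share of all loci called moved too. It was 12% at an adjusted p under 0.01, 31.5% under 0.1 and 24.9% with the trended and robust eBayes. With 1 array left out it was 15.1 to 21.7%. The filter tested 15489 loci, 64 of them plastid-encoded, and called 49.9% of the loci it tested, against 23.9% without it. The cause of these moves was not tested. The median shoot difference (0.04) was -0.08 with arrays centred on the plastid-encoded loci, a scaling that removes their common shift, and 0.00 to 0.13 with 1 array left out. With that centring the median root difference was -0.02, the median organ difference 1.01 in the wild type and 0.75 in rml1, and the loci at least 1 unit lower in roots numbered 5 and 0. With median centring of the arrays the organ medians were -3.02 and -3.16, and with 1 shoot array left out -2.93 to -2.85 in the wild type and -3.15 to -2.96 in rml1, with 64 to 65 loci at least 1 unit lower in each genotype. In the 6 nuclear lists together, 50 loci fell and 1 rose, with 28 to 42 and 0 to 1 when 1 array was left out.

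The values showed no pairing of the shoot samples by replicate number, though this check cannot exclude one. Deviations of samples with the same number correlated at -0.03, 0.00 and -0.10, and those with different numbers at -0.06 to 0.09. With the replicate number as a block 4 loci rose and 4 fell, ATCG00510, ATCG00750 and ATCG01010 were lost and ATCG01130 was gained, and 17.3% of all loci were called. Values of roots rest on 1 array each, and no detection calls were used, so how far low values stand above background is unknown.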
